A study of Mus musculus with 6 samples.

Results

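The nuclear factor I family consists in the mouse of the genes Nfia, Nfib, Nfic and Nfix. These were taken by symbol, and all 4 members were present among the 24421 gene rows of the count table. All 4 also passed the filter on low counts that left 11317 genes for testing. The values come from neural stem cells isolated from mouse embryos at E13.5 (embryonic age in days) and expanded as neurospheres, which are free-floating balls of proliferating progenitors. Cells grew with EGF and FGF2, the mitogens that keep progenitors dividing, at 20 ng/ml each and under 20% oxygen, and RNA was taken on day 4 after dissociation. The WT group and the Pml-/- group (labelled PML knockout) held 3 libraries each and were grown alike. The labels do not say whether replicates came from separate embryos or cultures, whether embryos were pooled, or which part of Pml was removed, so the p-values measure the spread between these libraries, which may be technical.

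Nuclear factor I proteins bind DNA as homodimers or heterodimers at a palindromic site, through a domain at their amino terminus that the family members share. Nfia and Nfib are switched on in the ventricular zone of the embryonic brain and spinal cord as progenitors turn from making neurons to making glia, and mice lacking either gene form fewer astrocytes and lack parts of the forebrain midline. Nfix holds neural stem cells in quiescence and times the production of intermediate progenitors, while Nfic is best known for its role in tooth root formation.

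The members are separate genes with related coding regions. On GRCm38, the assembly that mm10 names, Nfia (ENSMUSG00000028565.18) lies on chromosome 4 from 97772734 to 98118874 on the plus strand. Nfib (ENSMUSG00000008575.17) lies on the same chromosome from 82290173 to 82705750 on the minus strand. Nfic (ENSMUSG00000055053.18) lies on chromosome 10 from 81396186 to 81455635, and Nfix (ENSMUSG00000001911.16) on chromosome 8 from 84699876 to 84800344, both on the minus strand. Over the aligned coding bases, identity ran from 63.9% for Nfib and Nfic to 70.7% for Nfia and Nfix. The 60 coding bases that were most alike in an alignment of all 4 are shown to let the relation be seen at the sequence level. They lie in the region that encodes the DNA-binding domain, in exon 2 of each transcript used. In GENCODE M21 the stretch is chr4:97783134-97783193 for Nfia, chr4:82498658-82498717 for Nfib, chr10:81420687-81420746 for Nfic and chr8:84772204-84772263 for Nfix. Each is written 5′ to 3′ on the coding strand, and capitals mark the positions at which the 4 genes are not all the same.
Nfia: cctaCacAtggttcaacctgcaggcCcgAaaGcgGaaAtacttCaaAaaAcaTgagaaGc
Nfib: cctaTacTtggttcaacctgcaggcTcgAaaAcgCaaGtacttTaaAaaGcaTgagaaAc
Nfic: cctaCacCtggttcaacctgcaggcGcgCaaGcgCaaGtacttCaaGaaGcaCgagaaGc
Nfix: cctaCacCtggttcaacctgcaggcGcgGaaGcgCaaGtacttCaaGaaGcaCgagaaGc
Of the 60 positions 48 were the same in all 4 genes, and all 12 that differed were the third base of a codon.

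The library kit reads the 3′ end of polyadenylated transcripts. In the last 500 bases of the annotated coding transcripts, no word of 30 bases was shared between any pair of members. Over whole transcripts the only shared words of that length were 3 between Nfic and Nfix. Each member has several annotated coding 3′ ends, 4 for Nfia and Nfic and 5 for Nfib and Nfix, so a count sums over them. Whether counting used strand is not stated. The span of Nfia overlaps that of E130114P18Rik, a gene on the opposite strand with its own 13 to 174 counts per library. Whether their transcribed 3′ ends overlap, and so whether any read could be counted for the wrong gene, was not tested. A 3′ tag is counted once per transcript, so levels below are CPM, counts scaled to the library size with factors from the trimmed mean of M values (TMM), and are not divided by length.

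Library totals ran from 1775152 counts (WT replicate 2) to 5917505 (knockout replicate 1). WT replicates 1 and 2 stood apart. The Rn45s row, the 45S ribosomal RNA precursor, took 41.9% and 39.8% of their counts, against 19.6% in WT replicate 3 and 14.6% to 17.6% in the knockout. The summed level of 8 hepatocyte markers was 268 and 467 CPM in WT replicates 1 and 2, against 76.3 in WT replicate 3 and 42.0 to 61.7 in the knockout; among them Afp was at 0 in every library except WT replicate 2, with 3 counts. All 7 hepatocyte markers tested were lower in the knockout, 0 of them past the threshold used below and 7 at an unadjusted p under 0.05. Of all tested genes 9.19% were lower at that unadjusted p, and 49.7% had a log2 fold change above 0. Across all tested genes, WT replicate 3 correlated at 0.922 to 0.948 (Pearson r of log2 CPM, across genes, which are not independent) with the knockout libraries and at 0.903 and 0.776 with WT replicates 1 and 2. Of 10 neural stem cell markers 9 passed the count filter, and Msi1 had at most 5 counts in any library. Vim was the highest, with 2975 CPM in WT and 3071 in the knockout. By log2 fold change 6 of the 9 were higher in the knockout and 3 lower. Mean CPM in WT and the knockout was 260 and 190 for Nes, 805 and 687 for Sox2, and 378 and 1456 for Fabp7. The haemoglobin genes Hba-a1, Hbb-bs and Hbb-bt were at 0 in every library, microglial markers summed to at most 17.6 CPM and mesenchymal markers to at most 8.33. Pml itself had 36, 35 and 44 counts in the WT replicates and 14, 23 and 5 in the knockout. Its log2 fold change was -2.81 (SE 0.661), and the adjusted p was 0.197 by edgeR's quasi-likelihood test. Its call depended on the tool, since DESeq2 gave an adjusted p of 0.00341 and edgeR's exact test 0.00655, and on WT replicate 3, without which edgeR's quasi-likelihood test gave 0.0221. A 3′ tag outside the removed part would not report on the deletion.

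Nfia, Nfib and Nfix were among the more abundant transcripts of these cells, at or above the 97.3 percentile of mean level over all tested genes, and Nfic was at the 74.6 percentile. Nfia was higher in every knockout library than in any WT library, by 1.46-fold on average. Nfib was higher in the knockout than in WT replicates 1 and 2 and about the same as in WT replicate 3. Nfic had its highest values in WT replicates 1 and 2, and the mean level of Nfix was nearly the same in both genotypes. None of the 4 members passed the threshold, a Benjamini-Hochberg adjusted p under 0.05 over all genes by edgeR's quasi-likelihood test, which 0.00884% of tested genes did (1 gene). At an unadjusted p under 0.05, 0 of the 4 members passed, against 15.9% of all tested genes. DESeq2, edgeR's exact test and limma voom also called 0 of the 4; DESeq2 called 0.928% of all tested genes higher and 1.97% lower.

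Nfia encodes the member most closely tied to the onset of gliogenesis, and its loss delays that onset. It had 1283, 566 and 2688 counts in WT replicates 1, 2 and 3, or 382, 452 and 610 CPM. In knockout replicates 1, 2 and 3 it had 4233, 4608 and 4734 counts, or 637, 760 and 706 CPM. The groups did not overlap, although WT replicate 3 came close to the lowest knockout library. Nfia was the 1 member of 4 without overlap; among all tested genes 12.3% had every knockout library above every WT library and 11.3% below, 23.6% in either direction. The means were 481 ± 117 CPM in WT and 701 ± 61.7 CPM in the knockout (SD, n = 3 each). The log2 fold change was 0.54 (SE 0.277, 95% interval -0.07 to 1.16), with an adjusted p of 0.366 by edgeR's quasi-likelihood test. The interval includes no change. With WT replicate 3 as the lone WT library the value was 0.20.

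Nfib, which acts beside Nfia in glial and cortical development, was the most abundant member in all 3 knockout libraries. It had 1441, 329 and 4108 counts in WT replicates 1, 2 and 3, or 429, 263 and 932 CPM. In the knockout it had 6043, 5802 and 6404 counts, or 909, 957 and 955 CPM. WT replicate 3 fell between the knockout libraries, and the other 2 WT libraries were far below all of them. The WT libraries spanned a 3.55-fold range while the knockout libraries spanned 1.05-fold. The mean was 541 ± 349 CPM in WT and 940 ± 27 CPM in the knockout (SD, n = 3 each). The log2 fold change was 0.79 (SE 0.418, 95% interval -0.14 to 1.72), with an adjusted p of 0.376 by edgeR's quasi-likelihood test. The value turned on the WT libraries: without WT replicate 3 it was 1.45 (SE 0.293, adjusted p 0.0182), a fit in which 13% of all tested genes passed (5.01% higher and 7.97% lower), and without WT replicate 2 it was 0.47 (adjusted p 0.484). With WT replicate 3 as the lone WT library, whose spread is then assumed to be that of the knockout, it was 0.0074 (95% interval -0.54 to 0.56). WT replicates 1 and 2 are the libraries with the high Rn45s and hepatocyte values given above, whose part in the difference was not tested.

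Nfix, a regulator of stem cell quiescence, had 1638, 423 and 1216 counts in WT replicates 1, 2 and 3, or 488, 338 and 276 CPM. In the knockout it had 2304, 2344 and 2475 counts, or 347, 387 and 369 CPM. All knockout libraries lay inside the WT range. The mean was 367 ± 109 CPM in WT and 367 ± 20.0 CPM in the knockout (SD, n = 3 each), for a log2 fold change of 0.00057 (SE 0.281, 95% interval -0.62 to 0.62, adjusted p 0.999 by edgeR's quasi-likelihood test). The equal means do not show equal expression, since the interval is wide, from -0.62 to 0.62. Against WT replicate 3 alone the knockout mean was 1.33-fold higher, and against the mean of WT replicates 1 and 2 it was 0.890-fold.

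Nfic was by far the lowest member in every library. It had 284, 88 and 192 counts in WT replicates 1, 2 and 3, or 84.5, 70.3 and 43.6 CPM. The 88 counts of WT replicate 2 carry an exact Poisson 95% interval of 70.6 to 108, which covers counting error only. In the knockout it had 342, 273 and 319 counts, or 51.5, 45.0 and 47.6 CPM. WT replicate 3 was below all knockout libraries and the other 2 WT libraries were above all of them. The mean was 66.2 ± 20.8 CPM in WT and 48.0 ± 3.24 CPM in the knockout (SD, n = 3 each). The log2 fold change was -0.46 (SE 0.302, 95% interval -1.13 to 0.21, adjusted p 0.474 by edgeR's quasi-likelihood test). Its sign turned with library totals in place of TMM factors, to 0.06, a scaling that moved the median of all genes from -0.0058 to 0.43. It also turned with WT replicates 1 and 2 both left out, to 0.14, and without WT replicate 1 alone it was -0.21.

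**Figure D1:**
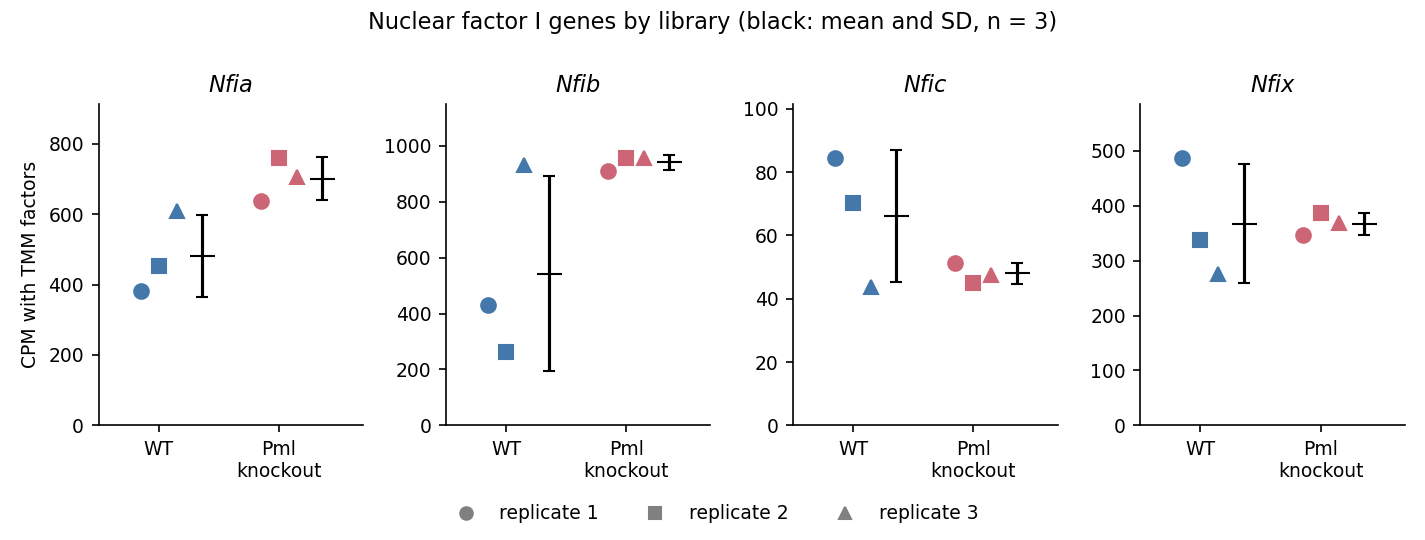
Level of each nuclear factor I gene in every library, in CPM with TMM factors on a linear axis starting at 0; circles, squares and triangles are replicates 1, 2 and 3, and black bars give the mean and SD of 3 libraries. The knockout libraries of Nfib sit between 909 and 957 CPM while WT replicates 1 and 2 sit at 429 and 263 and WT replicate 3 at 932.

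In the authors' deposited table the log2 fold changes were 0.564 for Nfia, 0.807 for Nfib, 0.031 for Nfix and -0.424 for Nfic. The adjusted p-values in the authors' deposited table were 0.399, 0.333, 0.976 and 0.555, so none of the members passed there at 0.05. For Pml the authors' deposited table gives -2.788 with an adjusted p of 0.00302.

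The balance among the 4 genes can be read within each library, where no library factor enters. The members took 4646, 1406 and 8204 counts together in WT replicates 1, 2 and 3, and 12922, 13027 and 13932 in the knockout. Nfib made up 31.0% (95% interval 29.7 to 32.4), 23.4% (21.2 to 25.7) and 50.1% (49.0 to 51.2) of these in the WT replicates, and 46.8% (45.9 to 47.6), 44.5% (43.7 to 45.4) and 46.0% (45.1 to 46.8) in the knockout. Intervals on shares are exact Clopper-Pearson intervals and cover counting error only. WT replicate 3 thus had the largest Nfib share of all 6 libraries, and WT replicates 1 and 2 the smallest.

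For Nfix the shares were 35.3%, 30.1% and 14.8% in the WT replicates and 17.8%, 18% and 17.8% in the knockout. Nfic took 6.11%, 6.26% and 2.34% in WT and 2.65%, 2.10% and 2.29% in the knockout. For both genes WT replicates 1 and 2 were above every other library and WT replicate 3 was close to or below the knockout. Nfia took 27.6%, 40.3% and 32.8% in WT and 32.8%, 35.4% and 34.0% in the knockout, so that WT replicates 1 and 2 lay on opposite sides of the other libraries.

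The mean share of Nfib was 34.8% ± 13.7 in WT and 45.8% ± 1.13 in the knockout (SD, n = 3 each), a difference of 10.9 percentage points with an exact two-sided permutation p of 0.4. For Nfix the means were 26.7% ± 10.6 and 17.9% ± 0.118, a difference of -8.86 points with an exact two-sided permutation p of 0.4. For Nfic they were 4.90% ± 2.22 and 2.34% ± 0.279 with an exact permutation p of 0.2, and for Nfia 33.5% ± 6.36 and 34.0% ± 1.31 with an exact permutation p of 0.9. Adjusted over the 4 members, the exact permutation p was 0.533 for Nfib, Nfix and Nfic and 0.9 for Nfia; with 20 ways to assign 6 libraries the smallest p possible was 0.1. Without WT replicate 3 the differences were 18.5 points for Nfib, -14.8 for Nfix and -3.84 for Nfic. Without WT replicate 2 that of Nfib was 5.21 points, without WT replicate 1 that of Nfix was -4.59, and the small difference of Nfia took either sign.

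The order of the levels differed accordingly. In each of the 3 knockout libraries and in WT replicate 3 it was Nfib, Nfia, Nfix and Nfic from high to low. In WT replicate 1 Nfix came first, then Nfib and Nfia, and in WT replicate 2 Nfia came first, then Nfix and Nfib. The ratio of Nfib to Nfix counts was 0.880 and 0.778 in WT replicates 1 and 2, against 3.38 in WT replicate 3 and 2.48 to 2.62 in the knockout. In WT the levels of Nfia, Nfib and Nfix overlapped over libraries and did not differ beyond their spread; in the knockout no 2 members overlapped. Nfic was last in all 6 libraries.

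**Figure D2:**
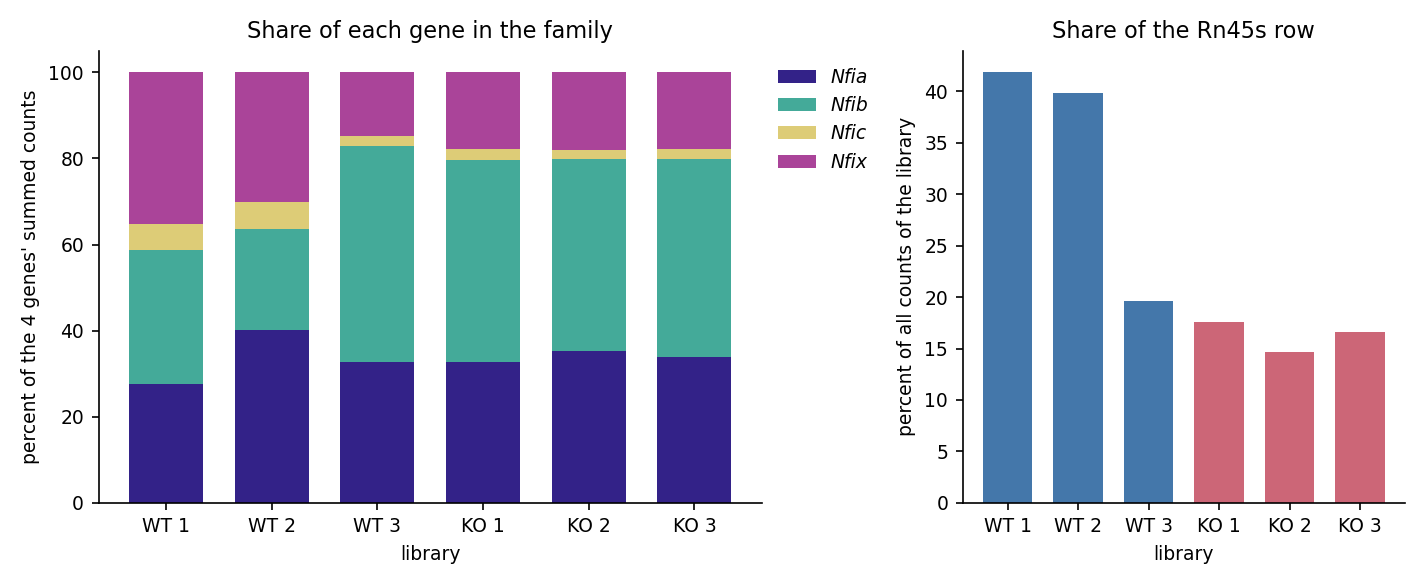
Left, the percent of the summed counts of Nfia, Nfib, Nfic and Nfix taken by each gene in every library (KO, Pml knockout). Right, the percent of all counts of the same library taken by Rn45s. WT replicates 1 and 2, with 41.9% and 39.8% Rn45s, have Nfib shares of 31.0% and 23.4%, and the other 4 libraries have shares from 44.5% to 50.1%.

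The members varied more between WT libraries than between knockout libraries. In WT the coefficient of variation was 64.4% for Nfib, 31.4% for Nfic, 29.6% for Nfix and 24.3% for Nfia, with a median over all tested genes of 40.0%. In the knockout it was 2.88% for Nfib, 6.75% for Nfic, 5.44% for Nfix and 8.80% for Nfia, with a median of 17.2%. The level of WT replicate 3 over the mean of WT replicates 1 and 2 was 2.70 for Nfib, a ratio that 6.63% of tested genes reached or exceeded. It was 1.46 for Nfia, 0.669 for Nfix and 0.563 for Nfic, with a median of 0.984 over all genes. The knockout mean over WT replicate 3 was 1.01 for Nfib, 1.15 for Nfia, 1.10 for Nfic and 1.33 for Nfix. In these bulk libraries fewer cells expressing a gene and less RNA per cell cannot be told apart.

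**Figure D3:**
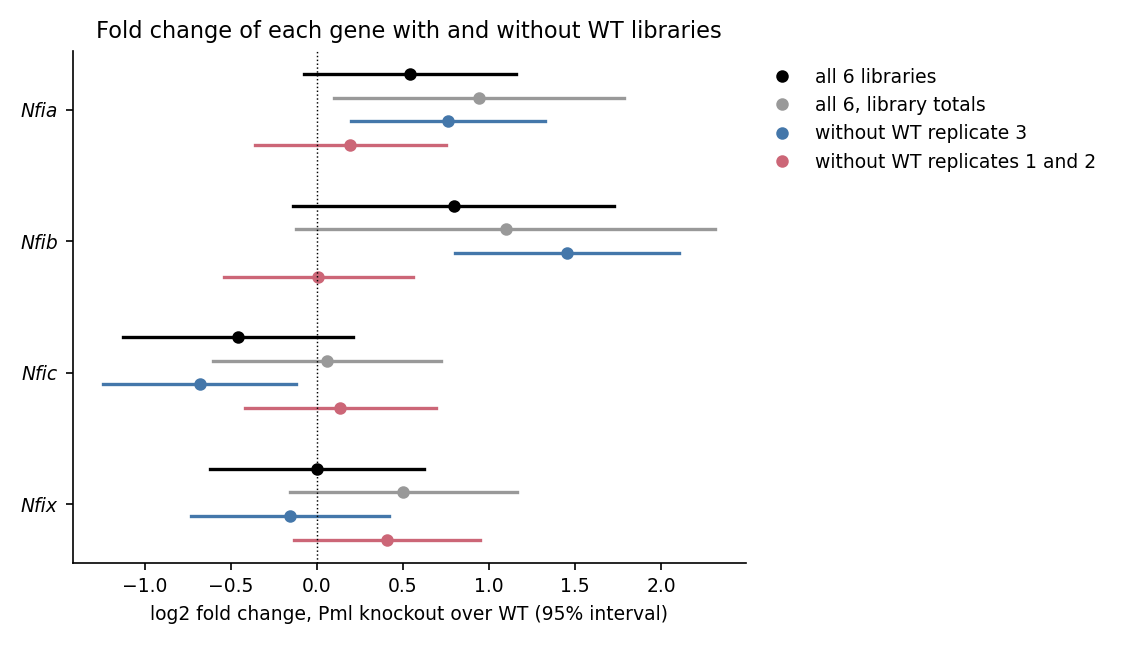
Log2 fold change of Pml knockout over WT for each gene with its 95% interval, from edgeR's quasi-likelihood fit to all 6 libraries (black), the same with library totals (grey), without WT replicate 3 (blue) and with WT replicates 1 and 2 both left out (red). For Nfib the value is 0.79 with all libraries, 1.45 without WT replicate 3 and 0.0074 without WT replicates 1 and 2.

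Across the 6 libraries Nfia and Nfib varied together (Pearson r 0.850, Spearman rho 0.886 of log2 CPM), and both varied against Nfic (r -0.943 and -0.859, rho -0.657 and -0.771). For Nfix and Nfic r was 0.641 and rho 0.43. For Nfix with Nfia and with Nfib the measures differed in sign, with r -0.416 and -0.275 and rho 0.086 and 0.20. These values describe 6 libraries in 2 genotypes, which share the split between WT replicates 1 and 2 and the rest, and they carry no test.

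Among 8234 genes of at least 10 CPM on average, the 3 whose log2 CPM followed Nfia most closely over the 6 libraries were Zbtb6, Fundc1 and Stx4a (Pearson r 0.999, 0.997 and 0.995). Fundc1 encodes a mitophagy receptor of the outer mitochondrial membrane and Stx4a a plasma membrane syntaxin. For Nfib they were Actr2, a subunit of the actin-nucleating Arp2/3 complex, Mdfic, and Edc4, a scaffold of mRNA decapping (0.999, 0.997 and 0.996). For Nfic they were Dhrs7b, Tomm6, a small subunit of the mitochondrial import pore, and Mospd3 (0.996, 0.994 and 0.992). For Nfix they were Txndc17, Atp5g2, a subunit of ATP synthase, and the nuclear receptor gene Ppard (0.993, 0.977 and 0.972). Correlations above 0.95 were common for Nfib (438 genes) and Nfia (110), and fewer for Nfic (60) and Nfix (12). The named genes were picked for the highest r among 8234 over only 6 libraries, so a high r follows from the choice. A link in function was not tested. Actr2 shows the Nfib pattern, with 38.1, 26.4 and 70.8 CPM in the WT replicates and 66.8, 73.5 and 73.7 in the knockout.

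Genes known as targets of nuclear factor I proteins were followed in a list of 18 symbols, of which 13 were tested. In the knockout 7 had a higher and 6 a lower level than in WT. The median log2 fold change was 0.02 against -0.0058 over all tested genes, of which 49.7% were higher. By edgeR's quasi-likelihood test 0 passed. At an unadjusted p under 0.05, 3 were higher and 0 lower, where 6.7% of all tested genes were higher and 9.19% lower. DESeq2 and edgeR's exact test each called Aqp4, and limma voom called 0. Of all 11317 tested genes DESeq2 called 328 and edgeR's exact test 358. The members not tested were Apcdd1, Insc and Cntn2, with 3, 19 and 10 counts over all libraries, Gabra6 at 0, and Chi3l1, which was not matched in the table.

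Fabp7 encodes the brain fatty acid binding protein of radial glia, whose promoter is bound by nuclear factor I proteins. It had 352, 73.5 and 708 CPM in WT replicates 1, 2 and 3 and 689, 2132 and 1547 CPM in the knockout. WT replicate 3 was above the lowest knockout library and the groups overlapped. The log2 fold change was 1.94 (SE 0.682, adjusted p 0.240 by edgeR's quasi-likelihood test), and without WT replicate 3 it was 2.77 (adjusted p 0.0272). Without that library 13% of all tested genes passed.

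Aqp4, the water channel of astrocyte end-feet, had 14.3, 16.8 and 8.85 CPM in WT and 26.8, 98.6 and 50.1 CPM in the knockout. The groups did not overlap, as for 12.3% of all tested genes with the knockout higher. The log2 fold change was 2.17 (SE 0.492, adjusted p 0.197 by edgeR's quasi-likelihood test). The adjusted p was 0.00563 by DESeq2, 0.00688 by edgeR's exact test and, with edgeR's quasi-likelihood test, 0.0404 without WT replicate 3. Without that library 13% of all tested genes passed.

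Zcchc24, which Sox9 and Nfia induce together, had 81.3, 52.0 and 112 CPM in WT and 116, 141 and 136 CPM in the knockout. WT replicate 3 lay just under the lowest knockout library, and the groups did not overlap, as for 12.3% of all tested genes with the knockout higher. The log2 fold change was 0.67 (SE 0.306, adjusted p 0.323), and 0.97 (adjusted p 0.0486 by edgeR's quasi-likelihood test) without WT replicate 3. Bbx, a gene that Nfix represses, had 55.1, 32.0 and 58.8 CPM in WT and 97.0, 91.5 and 67.0 CPM in the knockout (log2 fold change 0.79, SE 0.307, adjusted p 0.261). Gfap, the astrocyte intermediate filament, had 12.8, 103 and 0.227 CPM in WT and 3.61, 24.6 and 6.71 CPM in the knockout. Its WT libraries spanned the whole range, from 1 count in WT replicate 3 to 129 in WT replicate 2. Mmd2, another joint target of Sox9 and Nfia, had 260, 945 and 156 CPM in WT and 272, 452 and 399 CPM in the knockout. Its log2 fold change was -0.27 (SE 0.565), and 1.26 with WT replicate 3 as the lone WT library. Sparcl1 and S100b, both astrocyte genes, likewise had their highest value in WT replicate 2, at 1069 and 165 CPM. Thus WT replicate 2 was the lowest of the 6 libraries for Fabp7 and Zcchc24 and the highest for Gfap, Mmd2, Sparcl1 and S100b. The summed level of 6 astrocyte markers was 244, 611 and 213 CPM in WT and 353, 568 and 446 CPM in the knockout, and its part in these values was not tested.

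The promoters of Fabp7 and Zcchc24 are shown because both genes, like Nfib, passed the threshold without WT replicate 3 and because each holds an arm of the palindrome. Aqp4 also passed in that fit, but no promoter window was matched for it. In the same fit 13% of all tested genes passed. RefSeq windows from 250 bases before to 50 after a gene's start (GRCm38.p6) were matched for 10 of the 18 target genes. The palindrome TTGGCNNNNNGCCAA was found in 12 of 32851 windows of all genes and in 0 of 10 windows of target genes. Its arm TTGGC, read on both strands and so also as GCCAA, was found in 46.7% of all windows and in 8 of 10 windows of target genes. Such a match is a description of the letters, not of a bound site. The windows are chr10:57784673-57784972 on the plus strand for Fabp7 and chr14:25769023-25769322 on the minus strand for Zcchc24, written 5′ to 3′ with the arm in capitals.
Fabp7: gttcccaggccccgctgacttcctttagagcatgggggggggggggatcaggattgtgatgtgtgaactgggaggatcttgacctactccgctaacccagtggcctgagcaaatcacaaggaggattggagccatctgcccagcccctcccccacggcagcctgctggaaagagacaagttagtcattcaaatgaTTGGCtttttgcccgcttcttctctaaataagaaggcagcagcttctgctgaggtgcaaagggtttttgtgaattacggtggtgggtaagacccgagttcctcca
Zcchc24: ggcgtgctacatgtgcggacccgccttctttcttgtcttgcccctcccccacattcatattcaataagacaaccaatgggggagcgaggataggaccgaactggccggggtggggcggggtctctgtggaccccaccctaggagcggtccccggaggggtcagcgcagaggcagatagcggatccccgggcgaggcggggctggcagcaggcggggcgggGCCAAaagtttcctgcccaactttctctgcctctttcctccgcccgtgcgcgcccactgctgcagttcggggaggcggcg
The arm begins at position -55 from the start in Fabp7 and at -30 in Zcchc24. Windows were matched for 3 of the 4 family members. Of their 6 windows 3 held the arm, all of them among the 4 windows of Nfix. The Nfia window, chr4:97581693-97581992, lies outside the gene span given above. Those of Nfic and Nfix lie inside the spans given above, so the starts used differ from the span ends.

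Upstream regulators and partners of the family were followed in a list of 10 genes, all tested. Levels were higher in the knockout for 8 and lower for 2, and the median of their log2 fold changes was 0.36. By edgeR's quasi-likelihood test, DESeq2, edgeR's exact test and limma voom 0 passed, and at an unadjusted p under 0.05 1 was higher and 0 lower. Of all tested genes 6.7% were higher and 9.19% lower at that unadjusted p, and 49.7% had a log2 fold change above 0. For 5 of the 10 every knockout library was above every WT library, against 12.3% of all tested genes. Notch2, a receptor of the pathway that primes progenitors for Nfia expression, had 10.7, 5.60 and 12 CPM in WT and 16.5, 20.8 and 23.4 CPM in the knockout (log2 fold change 1.04, SE 0.378, adjusted p 0.242). Hes1, a repressor that Notch signalling induces and that nuclear factor I proteins repress, had 77.7, 16.0 and 77.9 CPM in WT and 107, 97.5 and 119 CPM in the knockout (log2 fold change 0.89, adjusted p 0.375). WT replicate 2 was the lowest of the 6 libraries for both genes, with only 7 counts of Notch2 and 20 of Hes1.

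Pax6, a transcription factor of cortical radial glia, had 32.7, 12 and 35.0 CPM in WT and 45.3, 46.3 and 39.7 CPM in the knockout (log2 fold change 0.68, adjusted p 0.396). Pou3f2, which binds an Nfia enhancer, had 25.6, 3.20 and 39.0 CPM in WT and 38.5, 43.7 and 49.8 CPM in the knockout (log2 fold change 0.89, adjusted p 0.458). WT replicate 2 was again the lowest library for both genes, with only 15 counts of Pax6 and 4 of Pou3f2. Sox9, which induces Nfia and then acts with it, had 822, 1215 and 610 CPM in WT and 889, 991 and 709 CPM in the knockout. Its log2 fold change was -0.03 (SE 0.320, 95% interval -0.74 to 0.68, adjusted p 0.970), and its groups overlapped. Sox9 was highest in WT replicate 2, the library in which Nfib was lowest.

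Of 15 other regulators of glial fate 14 were tested. Levels were higher in the knockout for 9 and lower for 5, and the median of their log2 fold changes was 0.10. Sox9, Hes1, Hes5 and Stat3 are also on the upstream list, so the lists are not independent. By edgeR's quasi-likelihood test, DESeq2, edgeR's exact test and limma voom 0 passed, and at an unadjusted p under 0.05 only Id3 was higher and 0 were lower, 1 of 14 where 6.7% of all tested genes were higher and 9.19% lower. Id3, an inhibitor of basic helix-loop-helix factors, had 218, 56.8 and 287 CPM in WT and 219, 534 and 565 CPM in the knockout (log2 fold change 1.22, SE 0.540, adjusted p 0.309). Stat3, the transcription factor through which cytokines induce astrocyte genes, had 150, 154 and 152 CPM in WT and 156, 260 and 190 CPM in the knockout. Its groups did not overlap, but knockout replicate 1 lay just above WT (log2 fold change 0.41, SE 0.266, adjusted p 0.467). Lhx2, a homeodomain factor of cortical progenitors, had 86.0, 45.6 and 53.3 CPM in WT and 90.1, 102 and 64.4 CPM in the knockout, with overlapping groups (log2 fold change 0.46, SE 0.318, adjusted p 0.490). Olig2, a factor of the oligodendrocyte lineage had a mean of 463 ± 150 CPM in WT and 507 ± 17.1 CPM in the knockout (log2 fold change 0.13, SE 0.301). Zeb1, a zinc finger repressor, had 445 ± 29.5 CPM and 350 ± 92.6 CPM (log2 fold change -0.35, SE 0.274, adjusted p 0.546). Counting each gene of the 3 lists once, 21 of 31 tested were higher and 10 lower, and 8 had groups that did not overlap, all of them higher in the knockout. Of all tested genes 49.7% had a log2 fold change above 0, 12.3% had groups that did not overlap with the knockout higher and 11.3% with the knockout lower. The lists were chosen with results of these data known, and these counts carry no test.

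**Figure D4:**
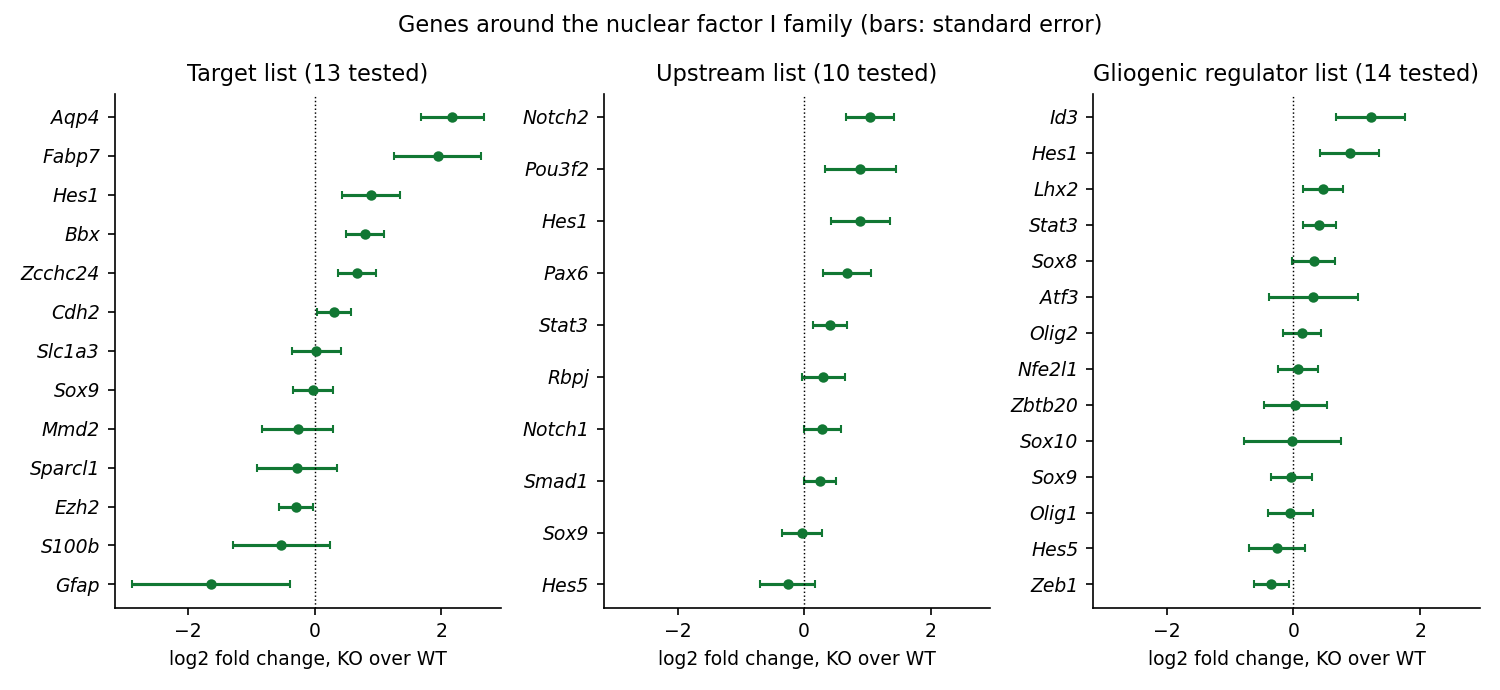
Log2 fold change of Pml knockout over WT with its standard error for the tested members of the target list (13), the upstream list (10) and the list of gliogenic regulators (14), by edgeR's quasi-likelihood fit; the dotted line marks no change and a gene can stand on more than 1 list. Aqp4 (2.17), Fabp7 (1.94) and Id3 (1.22) lie farthest to the right and Gfap (-1.64) farthest to the left, and none passed the threshold.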

How the data were processed

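Polyadenylated RNA of 6 libraries was profiled with a 3′ tag kit (QuantSeq forward), per the labels' protocols. The submitters' processing notes name FastQC, HISAT2, HTSeq, edgeR and mm10; their versions, the annotation and any strand option are not stated there. Read counts per gene symbol, unnormalized, were taken as deposited. The same table holds library-scaled counts rounded by the authors (a score, not used), and the authors' log2 fold changes and p-values, used only where named as theirs. Unused per-sample columns outside these numbered 0.

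Counts were fitted in R 4.3.3 with edgeR 4.0.16: filterByExpr (count minimum 10, total 15), TMM factors, and a robust quasi-likelihood test without covariates, adjusted by Benjamini-Hochberg over 11317 genes. The standard error is the log2 fold change divided by the square root of F. Library totals ran from 1775152 to 5917505 counts; the standard errors also carry the spread between libraries, which was largest for Nfib among the members. Alternatives were other factors (RLE size factors, upper quartile, library totals), other filters (none, or at least 5 CPM in 3 libraries), DESeq2 1.42.0, limma 3.58.1 voom, edgeR's exact test, a non-robust fit, a replicate block, the Rn45s row left out, and libraries left out. The fit was also run on simulated counts, with an outcome not reported here. Those counts did not hold the split among the WT libraries, so that run does not bear on it. Coding regions (longest basic transcript of each gene, GENCODE M21) were aligned with MAFFT 7.526.

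The members, lists and alternatives were chosen with earlier results of these data known. Named genes are the members, Pml, list genes including the 4 with the smallest p in each list, and for each member the 3 genes of at least 10 CPM that correlate best with it (log2 CPM, prior count 2).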

Additional observations from a re-analysis of the deposited data

How the results depend on the processing

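The log2 fold change of Nfia kept its sign and stayed short of the threshold under all 18 alternatives, from 0.20 to 0.94. Nfib kept its sign under all 18, from 0.0074 to 1.45, the lowest value being that with WT replicates 1 and 2 both left out. It ran from 0.47 to 1.45 when single libraries were left out, and it passed only without WT replicate 3. Nfic reversed with library totals (0.058) and with WT replicates 1 and 2 both left out (0.14). Nfix, near 0, reversed with RLE size factors (-0.0096) and DESeq2 (-0.0097), and ran from -0.16 to 0.27 when single libraries were left out. Pml kept its sign throughout, passed by DESeq2 (-2.86) and edgeR's exact test (-2.82), and ran from -3.43 to -2.22 when single libraries were left out. The causes were not tested.

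Over all genes 1 passed by edgeR's quasi-likelihood test. The count was 0 with RLE size factors, library totals, at least 5 CPM, limma voom or the Rn45s row left out, against 1798 genes at an unadjusted p under 0.05 with TMM factors and all libraries. It was 3 with no filter, 328 by DESeq2, 358 by the exact test and 142 with WT replicates 1 and 2 both left out. Leaving out single libraries gave 0 to 1526, the highest without WT replicate 3. Of the target list 1 passed by DESeq2 (Aqp4) and 1 by the exact test (Aqp4), and 0 to 3 when single libraries were left out. Of the gliogenic list 0 passed when single libraries were left out. With WT replicate 3 as the lone WT library, the log2 fold change was 1.26 for Mmd2 and 1.45 for Zbtb20. The difference in the share of Nfia ran from -2.47 to 3.85 percentage points when single libraries were left out.

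The deviations of same-numbered libraries from their group means correlated at -0.0025, 0.07 and 0.19 for replicates 1, 2 and 3. Deviations from means of 3 libraries cannot show whether the numbers pair the samples, and the labels do not say. With the replicate block the values were 0.57 for Nfia, 0.99 for Nfib, -0.41 for Nfic and 0.04 for Nfix, none past the threshold, and 2 genes passed over all. WT replicate 2, the shallowest library, had 88 counts of Nfic, the fewest of any member in any library; leaving it out moved the standard error of Nfib from 0.418 to 0.325 and that of Nfic from 0.302 to 0.289.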
